A study of Mus musculus with 8 samples.

Results

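The 5 genes described here, Alpl, Dppa2, Dppa4, Utf1 and Fbxo15, are markers of mouse embryonic stem (ES) cells that lie outside the core network of pluripotency transcription factors. They were chosen by name, and every probe that carries one of these names was taken from a 1-colour Agilent expression array. Each gene had 1 probe and 1 spot per array, so they are 5 of the 27670 genes and 5 of the 41174 probes measured. Alpl carries its older symbol, Akp2, in the array design. The study asked whether small molecules can turn mouse somatic cells into pluripotent cells, and total RNA of 4 populations was hybridised to 1 array each. PM2i-iPSC are induced pluripotent stem cells from mouse embryonic fibroblasts that received combinations of compounds with purmorphamine and then 2i/LIF. OM2i-iPSC were made in the same way with an oxysterol in place of purmorphamine. ES cells came from 129/Ola blastocysts, and MEF are the embryonic fibroblasts. Purmorphamine is an agonist of Smoothened, the signal transducer of the Hedgehog pathway, which some oxysterols activate too. The 2i/LIF medium combines inhibitors of MEK and GSK3 with the cytokine LIF. The other compounds of the combinations, the strain of the MEF and whether the hybridised MEF were the treated ones are not stated in the labels.

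These genes serve as readouts of the pluripotent state because they are active in ES cells and largely silent in somatic cells. Alpl encodes tissue-nonspecific alkaline phosphatase, a membrane-anchored enzyme whose activity stains ES cell colonies and which also serves bone mineralisation. Dppa2 and Dppa4 encode a pair of related SAP-domain proteins that bind chromatin together and, in mouse ES cells, activate genes of the early embryo. Utf1 encodes a chromatin-bound protein of undifferentiated cells whose enhancer is bound by Oct4 and Sox2. Fbxo15 encodes an F-box protein, is another target of Oct4 and Sox2, and its locus carried the selection marker with which induced pluripotent cells were first isolated from fibroblasts, although ES cells do without the gene.

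With 1 array per population there was no replicate error and no test, and differences are set against the spread between spots of 1 probe within an array. Pooled over the arrays, that spread was a standard deviation of 0.19 in log2 units and of 0.27 for the difference between 2 spots, and it leaves out culture, RNA and labelling. Between 63.3% and 72.8% of spots were well above background on the 4 arrays. The PM2i-iPSC and ES arrays shared a slide. The OM2i-iPSC array and the MEF array each lay on a slide of its own, and the MEF slide had a different scan day and an earlier release of the scanner software, so slide and population cannot be told apart in any comparison with MEF or OM2i-iPSC. All 6 ES markers were at least 2-fold higher than in MEF in each of the 3 other populations, and their summed signal was 73.8 in PM2i-iPSC, 63.3 in OM2i-iPSC, 85.4 in ES and 0.60 in MEF, in units of the array's 75th percentile. Nanog and Sall4 were saturated in the 3 other populations, and Esrrb in PM2i-iPSC. The sums there are lower limits and do not rank these populations. The summed signal of 10 fibroblast markers was 7.16 in PM2i-iPSC, 8.72 in OM2i-iPSC, 10.02 in ES and 181.8 in MEF, with Lum and Lox not well above background in PM2i-iPSC and Dcn and Lum not well above background in OM2i-iPSC. Col1a2 was saturated in MEF, so the MEF sum is a lower limit.

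Each value below rests on 1 probe of 60 bases, and the probes of 4 genes are shown because the readout of each gene is no more than this stretch. The Alpl probe lies on chromosome 4, written chr4:137120184-137120243 on the minus strand of build mm7. The Dppa4 probe, chr16:48053770-48053829, and the Dppa2 probe, chr16:48078749-48078808, lie on the plus strand of the same chromosome with 24919 bases between them. The Utf1 probe lies at chr7:136358008-136358067 on the plus strand. The exons and untranslated regions around the probes were not looked up. The first 3 lines hold 30 bases of a probe and the last holds the whole probe, 5′ to 3′ as the array design gives them. Capitals mark the polyadenylation hexamer AATAAA in Alpl and the longest run that the Dppa2 and Dppa4 probes share.
Alpl, bases 31 to 60: caagacatttaAATAAAacatcccaaatat
Dppa2, bases 31 to 60: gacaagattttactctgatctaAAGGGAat
Dppa4, bases 1 to 30: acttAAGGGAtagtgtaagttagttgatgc
Utf1, bases 1 to 60: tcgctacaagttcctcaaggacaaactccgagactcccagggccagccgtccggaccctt

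The Dppa2 and Dppa4 probes had no more than 6 bases in a row in common. The Alpl, Dppa2 and Fbxo15 probes each share a run of 15 bases with 1 other probe of the array, the Dppa4 and Utf1 probes with none, and cross-hybridisation was not tested. The hexamer AATAAA, read on the strand of the probe, is found in 4.78% of the 41174 probes. The Utf1 probe differs from the others in composition. Its GC content was 60.0%, against 31.7% for Alpl, 43.3% for Dppa2, 38.3% for Dppa4, 36.7% for Fbxo15 and a median of 40% over all probes, and 0.809% of probes reached that of Utf1. All 3 of its reading frames lacked a stop codon, which held for 3.92% of all probes.

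Against MEF, 4 of the 5 genes were far higher in all 3 other populations, and Utf1 was not. Alpl, Dppa2, Dppa4 and Fbxo15 exceeded the MEF level by 116-fold or more in each of PM2i-iPSC, OM2i-iPSC and ES, while Utf1 was 1.90-fold, 1.14-fold and 2.02-fold higher, its OM2i-iPSC value turning below MEF under other scalings. A level is the log2 ratio of a spot's processed signal to the 75th percentile of its array, and a difference is called at 2-fold. In PM2i-iPSC 4 of 5 genes were called higher and none lower, where 33.9% of all tested genes were called higher and 23.6% lower. In OM2i-iPSC 4 of 5 were called higher and none lower, against 36.8% and 23.1% of all genes. In ES all 5 were called higher, against 33.7% and 22.5% of all genes. With Utf1 within 2-fold it was 4 of 5 under median scaling, quantile normalization, and normexp and the deposited table scaled over probes. These background shares depend on the scaling. Of the genes called, those higher than in MEF made up 58.9% in PM2i-iPSC, 61.4% in OM2i-iPSC and 60% in ES, and 43.1%, 43.7% and 44.1% when each array was scaled to its median. The median difference over the 5 genes was 8.41 in PM2i-iPSC, 8.24 in OM2i-iPSC and 7.98 in ES, with 3 of the 5 values lower bounds, beside all-gene medians of 0.28, 0.40 and 0.28. The 3 comparisons share the MEF array. RNA was taken from whole populations, so fewer cells of a type and less RNA per cell cannot be told apart.

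**Figure D1:**
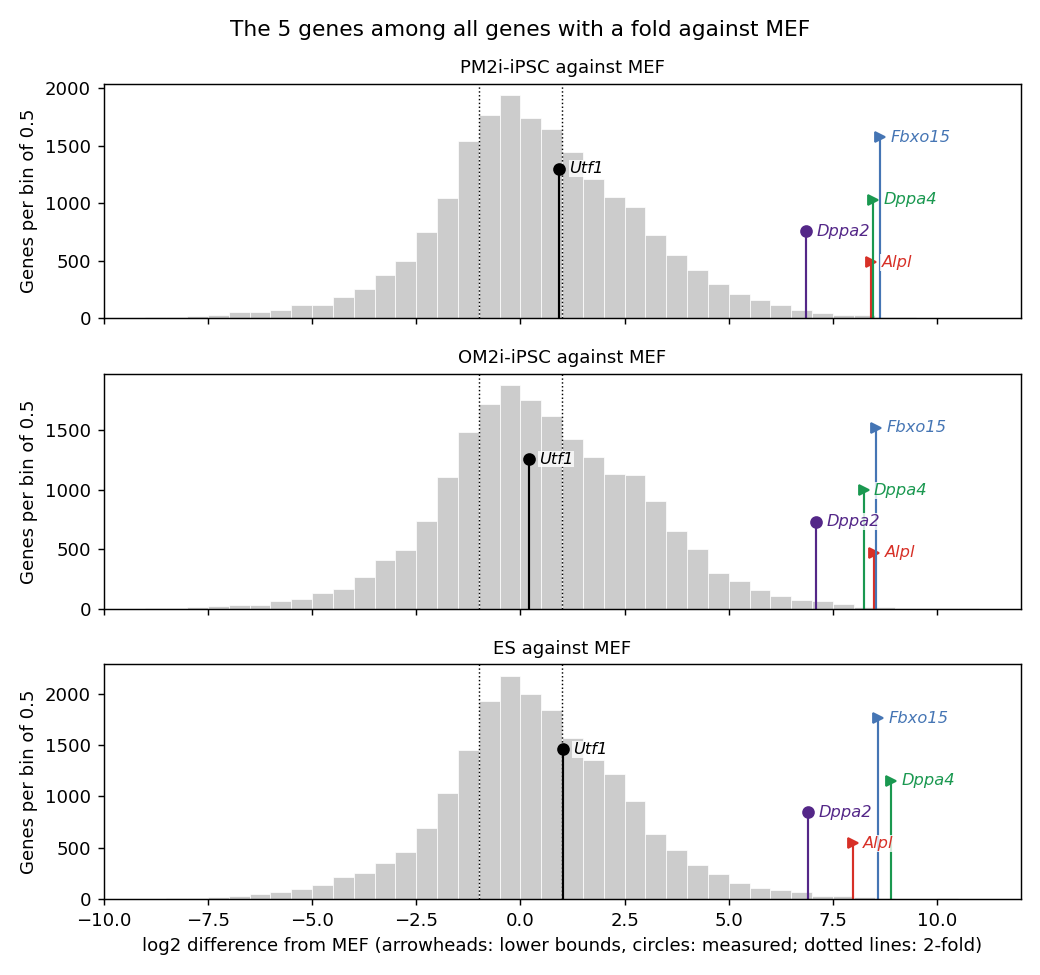
Histograms of the log2 difference from MEF over all genes with a fold, for PM2i-iPSC, OM2i-iPSC and ES from top to bottom, with bins of 0.5 and the number of genes on the vertical axis. Arrowheads mark the 5 genes where the value is a lower bound and circles where it was measured. Alpl, Dppa2, Dppa4 and Fbxo15 stand in the right tail of each panel between 6.86 and 8.90, and Utf1 stands between 0.19 and 1.02 (-0.55 in OM2i-iPSC when each array was scaled to its median).

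Alpl, the phosphatase, was bright in the 3 pluripotent populations and not detected above background in MEF. Its processed signal was 10423 in PM2i-iPSC, 10670 in OM2i-iPSC, 6903 in ES and 4.12 ± 4.11 in MEF, where the error is the one the scanner software gives. On the log2 scale these are levels of 1.56, 1.64, 1.13 and -8.83. The MEF spot had no signal that its own error would set apart from 0, and it was not well above background. Against the lowest signal well above background on the MEF array, 16.3, Alpl was at least 341-fold higher in PM2i-iPSC, at least 359-fold higher in OM2i-iPSC and at least 252-fold higher in ES. In the order of its levels OM2i-iPSC and PM2i-iPSC were 0.08 apart, less than the spot spread of 0.27, and ES came next.

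Of 3 other alkaline phosphatase genes, 1 was higher than in MEF in all 3 populations. Alppl2 was 6.61-fold higher in PM2i-iPSC, 4.94-fold higher in OM2i-iPSC and 4.76-fold higher in ES. Alpi, the intestinal enzyme, was within 2-fold of MEF in PM2i-iPSC and OM2i-iPSC (-0.59 and 0.57 on the log2 scale, and -1.22 and -0.18 under median scaling) and 3.08-fold lower in ES. A second, dimmer Alpi probe was well above background in PM2i-iPSC alone, at least 2.95 higher there than in MEF on the log2 scale. Akp3 was well above background in MEF but in none of the other 3 populations, and its value there was below the floor of those arrays, which gives no fold. The bound for Alpl exceeded each value measured for Alppl2 and Alpi in the same population.

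Mineralising genes, with which Alpl acts in bone, did not share its direction. Of 10 such genes on the array 8 could be tested, and 1 was higher and 4 lower than in MEF in PM2i-iPSC, 2 higher and 4 lower in OM2i-iPSC, and 1 higher and 5 lower in ES, beside the all-gene shares given above. Under median scaling and under quantile normalization none was higher and 5 were lower in OM2i-iPSC. The all-gene shares there were 27.3% higher and 35.2% lower under median scaling, and 32.35% and 25.46% under quantile normalization. Spp1, the matrix protein osteopontin, was 5.94-fold lower in PM2i-iPSC, 18.7-fold lower in OM2i-iPSC and 3.58-fold lower in ES. Enpp1, which makes the mineralisation inhibitor pyrophosphate, was lower by 4.57-fold in PM2i-iPSC, by 9.97-fold in OM2i-iPSC and by at least 25.7-fold in ES. A dimmer Enpp1 probe was within 2-fold of MEF in ES (-0.18 on the log2 scale). In PM2i-iPSC and OM2i-iPSC that probe was not well above background, and its differences there are bounds, -0.16 or lower in each. Ank, which moves pyrophosphate out of cells, differed from MEF by -3.50 in PM2i-iPSC, -2.08 in OM2i-iPSC and -2.20 in ES on the log2 scale. Phospho1, a phosphatase of mineralising cells picked out after its values were seen, was 6.04-fold, 3.02-fold and 6.34-fold higher in the same order, although by 0.85 on the log2 scale, under 2-fold, in OM2i-iPSC under median scaling. The median of this list was -1.39 in PM2i-iPSC, -1.38 in OM2i-iPSC and -1.53 in ES, and -2.01, -2.12 and -2.09 under median scaling.

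Dppa2 and Dppa4, the chromatin-binding pair, were both bright in the 3 pluripotent populations. Dppa2 had a processed signal of 10084 in PM2i-iPSC, 11456 in OM2i-iPSC, 9366 in ES and 46.2 ± 6.17 in MEF, or log2 levels of 1.51, 1.74, 1.57 and -5.35. Its MEF spot was well above background, where the lowest such signal was 16.3, so the differences are measured: 116-fold higher in PM2i-iPSC, 136-fold higher in OM2i-iPSC and 120-fold higher in ES. OM2i-iPSC exceeded PM2i-iPSC by 0.23 and ES by 0.18, both within the spot spread, so the order of the 3 pluripotent populations is not resolved.

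Dppa4 had a processed signal of 10777 in PM2i-iPSC, 8954 in OM2i-iPSC, 13126 in ES and 5.82 ± 3.73 in MEF, or log2 levels of 1.61, 1.39, 2.05 and -8.33. The MEF spot was not well above background, and Dppa4 was at least 352-fold higher in PM2i-iPSC, at least 301-fold higher in OM2i-iPSC and at least 479-fold higher in ES. In ES 28 of 20146 genes with a fold, Dppa4 included, stood as far above MEF as this, with bounds counted at their value. Its level was highest in ES, and the gap of 0.22 between PM2i-iPSC and OM2i-iPSC was again within the spot spread.

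**Figure D2:**
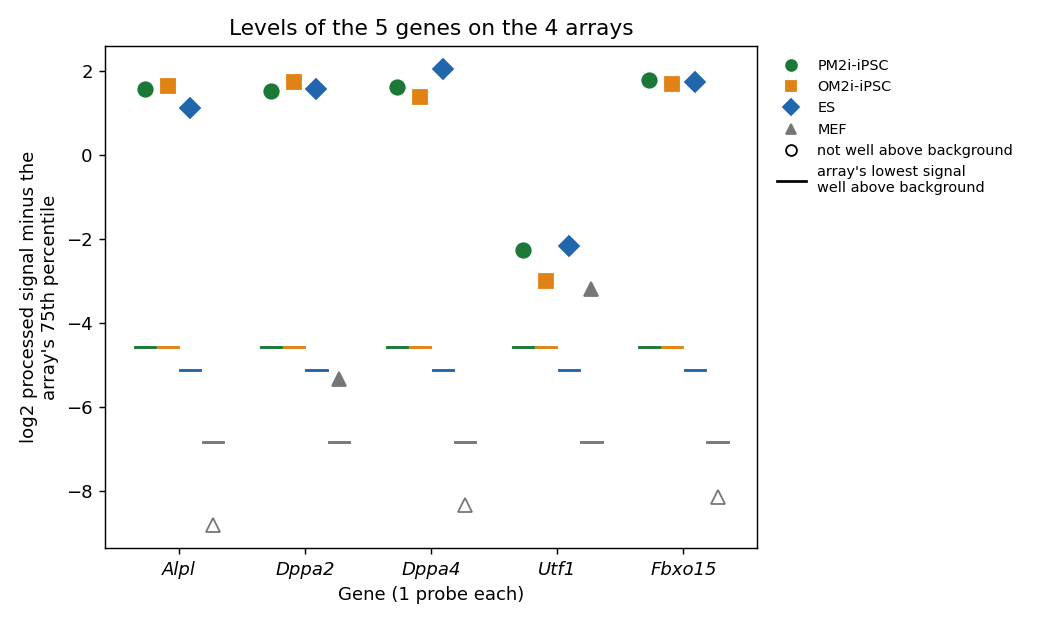
Log2 levels of the 5 genes (log2 ratio of processed signal to the array's 75th percentile) in PM2i-iPSC, OM2i-iPSC, ES and MEF, 1 spot per symbol. Open symbols were not well above background, and short lines give the floor of each array, the lowest of its signals well above background. Only Dppa2, at -5.35, and Utf1, at -3.19, have a filled MEF symbol.

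Genes reported to depend on Dppa2 and Dppa4 in mouse ES cells were mostly higher than in MEF, and a link to the pair was not tested. Of 5 on the array 4 could be tested, and 3 were higher and 1 lower than in MEF in PM2i-iPSC, 4 higher in OM2i-iPSC, and 3 higher in ES. Of all tested genes 33.9%, 36.8% and 33.7% were higher and 23.6%, 23.1% and 22.5% lower in the same order. Zscan4c, a zinc finger gene of 2-cell embryos, was 88.5-fold higher in PM2i-iPSC, 58.6-fold higher in OM2i-iPSC and 159-fold higher in ES. The Zscan4 genes are near-identical copies whose signals this probe may not separate, and a second probe of Zscan4c was well above background in ES alone. Syce1, a synaptonemal complex gene, was 23.4-fold, 37.6-fold and 21.6-fold higher in the same order. Mael, a germline gene, was at least 251-fold, at least 199.6-fold and at least 277-fold higher. Zfp352, another gene of 2-cell embryos, was 2.25-fold lower in PM2i-iPSC, 2.10-fold higher in OM2i-iPSC (within 2-fold, at 0.33, under median scaling) and within 2-fold of MEF in ES. Nkx2-5 was not well above background on any of the 4 arrays.

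Dppa4 and Dppa2 are adjacent protein-coding genes in the RefSeq annotation of GRCm38.p6, and their neighbours, added after the values of the pair were seen, did not all share their pattern. Morc1, the next gene after Dppa2 and one required in male germ cells, had log2 levels of 0.53 in PM2i-iPSC, -1.35 in OM2i-iPSC, 1.37 in ES and -9.16, not well above background, in MEF. It was at least 166-fold, at least 45.2-fold and at least 298-fold higher than in MEF, although a second Morc1 probe was not well above background on any array. On the other side Nectin3, an adhesion receptor gene, was within 2-fold of MEF in PM2i-iPSC and ES and 2.20-fold lower in OM2i-iPSC, the last within 2-fold, at -0.92, under quantile normalization. By a second, dimmer Nectin3 probe the differences were at least 2.81 lower in PM2i-iPSC, -0.34 in OM2i-iPSC and -0.72 in ES on the log2 scale. Cd96 was lower by 2.08-fold in PM2i-iPSC, by at least 6.64-fold in OM2i-iPSC and by 2.74-fold in ES. Trat1 was well above background in ES alone, at least 4.10-fold higher than in MEF. Over the 16 nearest measured neighbours of the 5 genes, 6 of 15 tested were higher and 2 lower than in MEF in PM2i-iPSC, 4 of 14 higher and 3 lower in OM2i-iPSC, and 6 of 16 higher and 3 lower in ES. Over all tested genes the shares higher than in MEF were 33.9%, 36.8% and 33.7% in the same order, and the shares lower 23.6%, 23.1% and 22.5%, so these counts are no result about the neighbours.

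**Figure D3:**
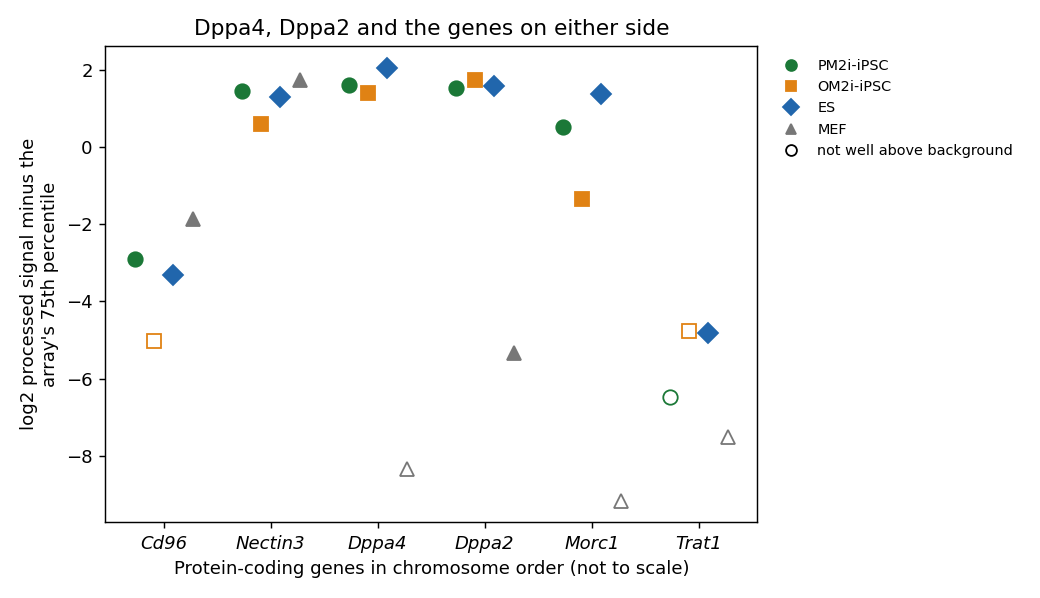
Log2 levels in PM2i-iPSC, OM2i-iPSC, ES and MEF of Dppa4, Dppa2 and the measured protein-coding genes on either side, in chromosome order and not to scale, with open symbols where a spot was not well above background. Dppa4, Dppa2 and the brighter Morc1 probe show the wide gap above MEF in the other 3 populations, and the brightest Nectin3 probe lies within 1.13 of its MEF level.

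Fbxo15, the F-box gene, was bright in the 3 pluripotent populations. Its processed signal was 12076 in PM2i-iPSC, 11087 in OM2i-iPSC, 10484 in ES and 6.62 ± 3.67 in MEF, or log2 levels of 1.77, 1.69, 1.73 and -8.15. The 3 pluripotent populations lay within 0.08 of each other, less than the spot spread, so their order is not resolved. The MEF spot was not well above background, and Fbxo15 was at least 395-fold higher in PM2i-iPSC, at least 373-fold higher in OM2i-iPSC and at least 382-fold higher in ES. With bounds counted at their value, no more than 41 genes in each comparison, Fbxo15 included, stood so far above MEF. Genes with smaller lower bounds may stand higher than counted.

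The other F-box genes whose symbol is Fbxo and a number lay on both sides of MEF. Of 33 on the array, 11 were higher and 6 lower than in MEF among 30 tested in PM2i-iPSC, 9 higher and 8 lower among 31 in OM2i-iPSC, and 9 higher and 8 lower among 31 in ES, with medians of 0.16, 0.19 and 0.04. These shares were near those of all tested genes, of which 33.9%, 36.8% and 33.7% were higher and 23.6%, 23.1% and 22.5% lower in the same order. Under median scaling 8 were higher and 11 lower in PM2i-iPSC, 7 higher and 14 lower in OM2i-iPSC, and 6 higher and 9 lower in ES. The all-gene shares under that scaling were 25.8%, 27.3% and 25.7% higher and 34.0%, 35.2% and 32.5% lower in the same order. Fbxo27 was the highest of them in every comparison, at least 44.9-fold in PM2i-iPSC, at least 52.3-fold in OM2i-iPSC and at least 56.1-fold in ES, bounds set by saturation of the brighter spots. Fbxo36 came next in PM2i-iPSC and ES, at 21.2-fold and 24.1-fold, and was 9.36-fold higher in OM2i-iPSC, where Fbxo16 came next at 3.72 on the log2 scale. A second Fbxo36 probe differed by 2.29 in PM2i-iPSC, 3.70 in OM2i-iPSC and 2.35 in ES. At the low end stood Fbxo46 in PM2i-iPSC, at least 15.4-fold lower, Fbxo39 in OM2i-iPSC, 148-fold lower, and Fbxo32, a muscle ubiquitin ligase subunit, in ES, 20.2-fold lower. Fbxo4 was second from the bottom in each, at 11.9-fold, 12.3-fold and 18.8-fold lower. No measured value above MEF among the 33 reached the bound of Fbxo15.

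F-box proteins work within SCF ubiquitin ligases, and the core subunits gave mixed values. Cul1, the scaffold, was 3.05-fold higher in PM2i-iPSC, 3.82-fold higher in OM2i-iPSC and 2.78-fold higher in ES by its brightest probe, and within 2-fold in PM2i-iPSC and ES under median scaling (0.98 and 0.92). A second Cul1 probe differed from MEF by 3.58 in PM2i-iPSC, 0.06 in OM2i-iPSC and 0.25 in ES on the log2 scale, and the remaining probe by 0.36, 0.62 and 1.22. Skp1, the adaptor that binds the F-box, was within 2-fold of MEF in PM2i-iPSC and ES (-0.39 and 0.66) and 2.86-fold lower in OM2i-iPSC, with -1.02 in PM2i-iPSC under median scaling. Rbx1, the RING subunit, was 2.10-fold lower in PM2i-iPSC, 2.62-fold lower in OM2i-iPSC and within 2-fold in ES (-0.49), whereas under quantile normalization it was within 2-fold in all 3 (-0.35, -0.76 and 0.11). A second, dimmer Rbx1 probe was within 2-fold in all 3 without that change of scaling (-0.08, -0.87 and 0.19).

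Utf1, the chromatin-bound marker, was well above background on all 4 arrays, with levels under the 75th percentile on each. Its processed signal was 734 ± 83.9 in PM2i-iPSC, 428 ± 53.6 in OM2i-iPSC, 699 ± 73.0 in ES and 205 ± 20.8 in MEF, with the error of the scanner software. Scaled, these are log2 levels of -2.27, -3.00, -2.18 and -3.19. Utf1 is thus the gene of the 5 whose MEF level lay nearest to the others. ES exceeded MEF by 1.02 and PM2i-iPSC exceeded MEF by 0.93, both over 3 times the pooled spot spread of 0.27, and OM2i-iPSC exceeded MEF by 0.19, which is within it. Among probes of similar brightness that spread was 0.415 within the PM2i-iPSC array, 0.285 in OM2i-iPSC, 0.329 in ES and 0.175 in MEF. Utf1 ranked far from the extreme, since 7557 of 19574 genes in PM2i-iPSC, 10760 of 20084 in OM2i-iPSC and 7281 of 20146 in ES differed from MEF by as much or more in the same direction.

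The Utf1 differences from MEF depended on the scaling. With each array scaled to its median they were 0.30 in PM2i-iPSC, -0.55 in OM2i-iPSC and 0.46 in ES, and with quantile normalization 0.27, -0.64 and 0.42. Taken relative to the all-gene median of the same comparison, Utf1 stood at 0.65 in PM2i-iPSC, -0.20 in OM2i-iPSC and 0.74 in ES under the 75th percentile. Median scaling gave 0.65, -0.20 and 0.73, a match fixed in advance because the 2 scalings differ by a constant per array. Under quantile normalization the relative values were 0.14, -0.78 and 0.34, and under normexp 0.43, -0.11 and 0.73, in the same order. Whether the GC-rich probe has a part in the small differences was not tested. With no second Utf1 probe, the level in MEF cannot be set against another stretch of the gene.

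The Oct4 and Sox2 genes and others with a composite Oct4-Sox2 element, the element that Utf1 carries, were higher than in MEF in all 3 populations, 4 of 4 on the array in each. Of all tested genes 33.9% were higher in PM2i-iPSC, 36.8% in OM2i-iPSC and 33.7% in ES. Pou5f1, which encodes Oct4, was 938-fold higher in PM2i-iPSC, 647-fold higher in OM2i-iPSC and 1271-fold higher in ES. Sox2 was 12.3-fold, 9.62-fold and 16.3-fold higher in the same order. Nanog, whose brighter spots were saturated, was at least 289-fold, at least 273-fold and at least 297-fold higher. Lefty1, a Nodal antagonist, was 2.55-fold, 15.9-fold and 4.51-fold higher, and within 2-fold in PM2i-iPSC under median scaling (0.72). Each of the 4 therefore differed from MEF by more than Utf1 in each population.

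Between the induced cells and ES no gene of the 5 passed 2-fold under the 75th percentile scaling. In PM2i-iPSC, whose array shared a slide with ES, 14% of all tested genes were higher and 11.3% lower than in ES, and in OM2i-iPSC 20.9% and 13.3%. Alpl was 1.35-fold higher in PM2i-iPSC and 1.43-fold higher in OM2i-iPSC than in ES, differences of 0.44 and 0.51 that are 1.63 and 1.91 times the spot spread. For Dppa4 the difference from ES was -0.44 in PM2i-iPSC, or 1.65 times the spread, and -0.67 in OM2i-iPSC, or 2.49 times the spread. Alpl thus stood above ES and Dppa4 below it in both preparations, which share the ES array. Dppa2 and Fbxo15 stayed within the spot spread of ES in both, at -0.05 and 0.05 in PM2i-iPSC and 0.18 and -0.03 in OM2i-iPSC.

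Utf1 was the gene of the 5 that separated the preparations most. It differed from ES by -0.09 in PM2i-iPSC, within the spot spread, and by -0.82 in OM2i-iPSC, 1.77-fold lower and 3.07 times the spread. For probes of similar brightness the spread of a difference was wider, 0.415 in PM2i-iPSC, 0.285 in OM2i-iPSC and 0.329 in ES. Under median scaling and quantile normalization the OM2i-iPSC value passed 2-fold, at -1.01 and -1.06. Marker genes also differed between OM2i-iPSC and ES, beside 20.9% of all tested genes higher and 13.3% lower. In OM2i-iPSC against ES 4 of the 6 ES markers had a fold, with a median of -0.83 and none past 2-fold. Nanog and Sall4 were saturated on both arrays and gave no fold. Under median scaling 2 ES markers were lower, with a median of -1.015, where 17.5% of all tested genes were lower. The 10 fibroblast markers had 2 higher, 3 lower and a median of -0.57. Of 4 trophoblast markers tested 2 were higher, Cdx2 by 3.48 and Hand1 by 2.03, and Eomes (-0.54) and Krt7 (-0.08) were within 2-fold. Of 4 endoderm markers, Gata6 giving no fold, Sox7 was higher by 1.31, although another Sox7 probe was well above background in ES and not in OM2i-iPSC. The part of these cell types in the Utf1 difference was not tested. Utf1 was 1.66-fold higher in PM2i-iPSC than in OM2i-iPSC, and the other 4 genes differed between these by -0.23 to 0.22. None of the 5 passed 2-fold between the preparations, where 12.2% of all tested genes were higher and 17.2% lower in PM2i-iPSC.

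**Figure D4:**
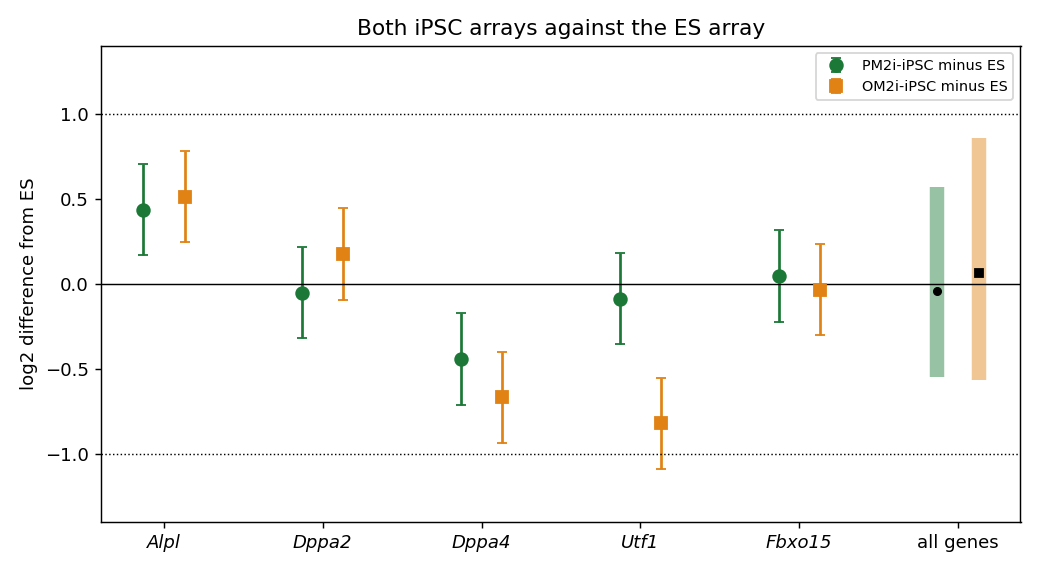
Log2 difference from ES of the 5 genes in PM2i-iPSC and OM2i-iPSC, with bars of 1 standard deviation between spots of a probe (0.27), which are not replicate errors. Shaded bars at the right give the range from the lower to the upper quartile of all genes with their medians, and dotted lines mark 2-fold. Alpl lies above 0 and Dppa4 below it in both, and Utf1 in OM2i-iPSC lies lowest, at -0.82.

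The genes with the most similar profiles over the 4 arrays were partly shared between Alpl, Dppa4 and Fbxo15, while Dppa2 and Utf1 had others. Likeness was the Euclidean distance between log2 levels centred on each gene, over 12644 genes. These had a RefSeq symbol, were well above background in PM2i-iPSC, OM2i-iPSC and ES, and were saturated on no array, which left out Nanog and Sall4. Signals not well above background were raised to the floor, so many of these genes share the same MEF value. Fbxo15 was nearest to Cyct (0.22), a testis cytochrome c, then Gldc (0.34), a glycine cleavage enzyme, Slc9b1 (0.35) and Rims3 (0.41), with Dppa4 and Alpl 6th and 7th, both at 0.47. Dppa4 was nearest to Slc9b1 (0.19), Grtp1 (0.33), Fbxo15 (0.47) and Cyct (0.50). Alpl was nearest to Rims3 (0.41), Shq1 (0.42), Platr14 (0.44) and Fbxo15 (0.47).

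Dppa2, which alone of the bright genes had a measured MEF level, was nearest to Rnf17 (0.17), a germline Tudor-domain gene, Nup210 (0.20), a nuclear pore gene, Vil1 (0.26) and Catsperz (0.30). Its partner Dppa4 ranked 187th for Dppa2, at a distance of 1.49. Utf1 was nearest to D5Ertd579e (0.07), Nuf2 (0.08), a kinetochore gene, Ankhd1 (0.09) and Rcc2 (0.10), all with small differences from MEF. Its distance to the other 4 members was 5.46 or more.

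Other ES-enriched genes gave a yardstick for the 5. Of 21 on the array, 20 of 21 tested were higher than in MEF in PM2i-iPSC, 19 of 20 in OM2i-iPSC and 19 of 21 in ES, none lower, with medians of 5.18, 4.79 and 5.78. Of all tested genes 33.9%, 36.8% and 33.7% were higher in the same order. Under median scaling 18, 16 and 18 of the list were higher, beside 25.8%, 27.3% and 25.7% of all tested genes. Tdgf1, a Nodal co-receptor, was at least 293-fold, 242-fold and 219-fold higher in the same order. Zfp42, the zinc finger gene also called Rex1, differed by 6.48, 6.01 and 6.90 on the log2 scale by 1 probe, and by at least 9.77, 9.20 and 10.19 by another. Sox15 differed by 5.80, 4.73 and 6.31. Against ES none of 21 tested was higher and 1 lower in PM2i-iPSC, and 2 were higher and 6 lower of 20 in OM2i-iPSC. The all-gene shares against ES were 14% higher and 11.3% lower in PM2i-iPSC, and 20.9% and 13.3% in OM2i-iPSC. None of the 5 markers was called in either direction under the main scaling. Utf1 in OM2i-iPSC was called lower than in ES by median scaling (-1.01) and by quantile normalization (-1.06).

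**Figure D5:**
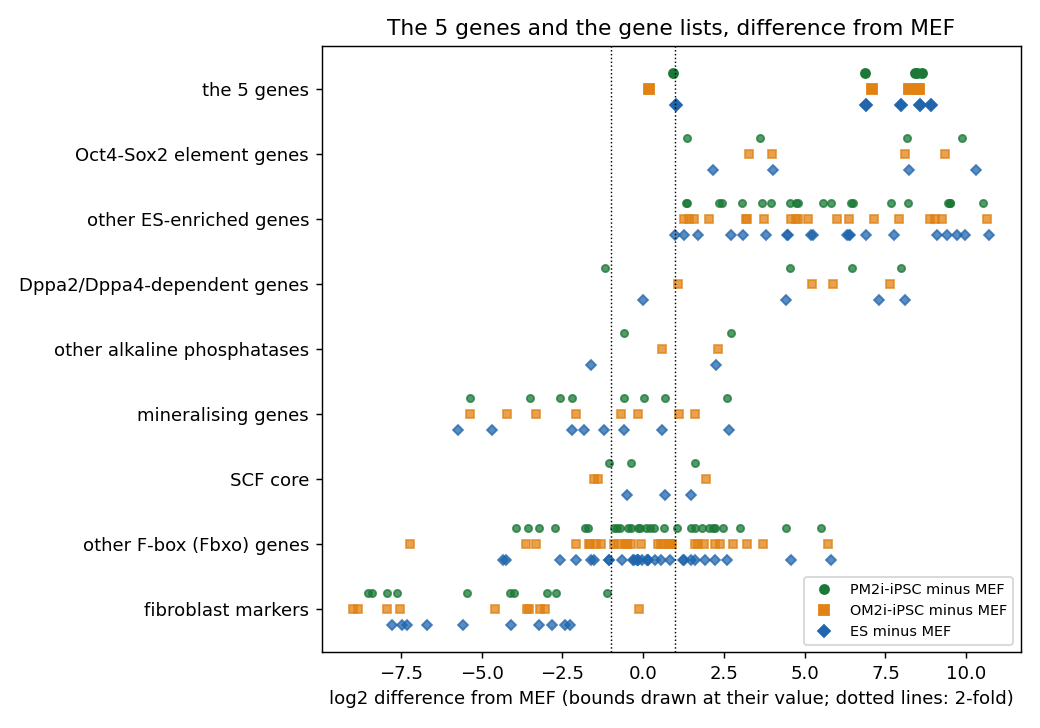
Log2 difference from MEF in PM2i-iPSC, OM2i-iPSC and ES for the 5 genes and the members of 8 gene lists, 1 symbol per gene, with bounds drawn at their value and dotted lines at 2-fold. The Oct4-Sox2 element genes and the other ES-enriched genes lie to the right like 4 of the 5, the other F-box genes lie on both sides, and the fibroblast markers lie to the left.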

How the data were processed

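Per the file headers, the deposited Agilent scanner files hold spot intensity extracted with Agilent Feature Extraction 10.7.3.1 (PM2i-iPSC, OM2i-iPSC, ES) or 9.5.3.1 (MEF), with flags for signals well above background and for saturation. Probe coordinates follow the mm7 grid of the MEF file. Control and outlier spots were left out and the log2 ratio of processed signal to each array's 75th percentile was computed (pandas 2.3.3, numpy 2.4.6). That percentile was 3529 in PM2i-iPSC, 3426 in OM2i-iPSC, 3162 in ES and 1877 in MEF. Names came from the accession for 22951 of the 41174 probes, from the symbol for 6659, from an older symbol for 3109 and from the file for 8455. The brightest probe stood for a gene, which was tested if well above background on either array of a comparison. If the dimmer array failed this, or the brighter one was saturated, the fold is a lower bound. The fold rule was tested on simulated data.

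The 5 genes and the lists were chosen with earlier results of these data known. Named genes were the 5, the 4 most similar genes to each, up to 3 genes per list with the widest measured difference from MEF in PM2i-iPSC or OM2i-iPSC and the 2 F-box genes at each end. The other members named from lists of up to 5, the neighbours and genes marked so were chosen after their values were seen. Of the marker lists not given above, 4 of 4 tested trophoblast markers were higher than in MEF in PM2i-iPSC, OM2i-iPSC and ES, and 3 of 4 in each under median scaling. Of 4 endoderm markers 3, 2 and 3 were higher, and 2 in each under median scaling, while Gata6, saturated, gave no fold. Of 6 germ cell markers 4, 4 and 4 were higher. Of all tested genes 33.9%, 36.8% and 33.7% were higher in the same order, and 25.8%, 27.3% and 25.7% under median scaling. Second probes of Krt7 and Dazl were called the other way.

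There were 7 alternatives: median scaling, quantile normalization, normexp with limma 3.58.1, the deposited series table (the same intensity within 0.5%), the median over the probes of a gene, 1 floor for all arrays and no filter on dim probes. Normexp used median signals because 3 of the files lack mean signals. The 4 Affymetrix arrays were not analysed here, since no table at hand pairs their probe sets with genes.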

Additional observations from a re-analysis of the deposited data

How the results depend on the processing

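The count of the 5 genes past 2-fold for OM2i-iPSC against ES was 1 in place of 0 under 2 of the 7 alternatives, with Utf1 lower by median scaling (-1.01) and by quantile normalization (-1.06). Utf1 in ES against MEF, 1.02, was under 2-fold by median scaling (0.46), quantile normalization (0.42), normexp (0.87) and the deposited table (0.95). Alpl, Dppa2, Dppa4 and Fbxo15 kept 5.52 or more against MEF in PM2i-iPSC, OM2i-iPSC and ES under all 7. No difference past 2-fold changed sign under any of them, but Utf1 in OM2i-iPSC against MEF, 0.19, was -0.55 by median scaling and -0.64 by quantile normalization. Of 30 differences, 15 moved by more than the spot spread under median scaling, 15 under quantile normalization, 13 under normexp, 12 with 1 floor and 9 without the filter, and none with the deposited table or the probe median. Without the filter the all-gene counts rose by over 1.5 times for genes higher than in MEF, to 12876 against 7353 in PM2i-iPSC, 13354 against 8059 in OM2i-iPSC and 12330 against 7322 in ES. No paired analysis was possible because each population has 1 array. The MEF signals of Alpl, Dppa4 and Fbxo15 were under the lowest signal well above background, so their fold sizes are limits set by that array.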
